A study of Mus musculus with 32 samples.

Results

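The 10 genes described here are the MiT/TFE transcription factors Mitf, Tfeb, Tfe3 and Tfec together with 6 regulators that act on them at the lysosome, namely Flcn, Fnip1, Fnip2, Rragc, Rragd and Mcoln1. They were taken by Ensembl identifier from 3 tables of estimated counts per gene, and all 10 were found in each table, among 74021 genes in the table of LAG-3-sorted microglia, 74016 in the table of microglia by stage and 74021 in the table of spinal cord tissue. The SOD1G93A mice carried a mutant human SOD1 transgene of the 1Gur line on the B6 background, a model of amyotrophic lateral sclerosis, and LAG-3-/- animals carried the Lag3tm1Doi null allele in every cell, not only in microglia. In the first table, CD11b+/CD45int lumbar cord cells of SOD1G93A mice, P140 by the study's methods, were gated on LAG-3 fluorescence into LAG-3-low (5 libraries) and LAG-3-high (5 libraries), and cells of non-transgenic littermates, called WT, gave 4 libraries. The second table held CD11b+/CD45int cells of SOD1G93A mice that were either LAG-3+/+ or LAG-3-/-, taken at postnatal day 120 (P120) and day 140 (P140), with 3 libraries in each of the 4 groups, and the last table held P140 lumbar cord RNA of both genotypes, with 3 libraries each. All mice of the latter tables therefore carried the SOD1 transgene, and neither table held a non-transgenic group. The labels do not say which libraries came from separate animals, nor whether both gates shared animals. The p-values therefore measure the spread between these libraries, without pairing.

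MiT/TFE factors are related basic helix-loop-helix proteins that bind E-box sequences and raise the transcription of lysosomal, autophagy and, in macrophages and osteoclasts, phagocytic and bone-resorbing genes. When amino acids are plentiful, Rag GTPases (Rragc and Rragd encode RagC and RagD) hold the mTORC1 kinase and the factors at the lysosomal surface, where folliculin (Flcn) with its partners Fnip1 and Fnip2 sets the nucleotide state of RagC and RagD, and the phosphorylated factors stay in the cytoplasm. Under starvation or lysosomal stress the channel TRPML1 (Mcoln1) releases lysosomal calcium, calcineurin removes the phosphates and the factors enter the nucleus. The steps after transcription are not measured by RNA, which counts the transcripts of these genes and not their activity.

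Totals ranged from 9403475 to 22850586 counts per library in the sorted table, from 23981406 to 49512632 in the stage table and from 19430102 to 26994524 in the cord table. Lag3 itself followed the labels, with means of 4.61 CPM (counts scaled to a common library total) in WT, 43.5 for LAG-3-low and 169 for LAG-3-high, and with 0.292 and 0.173 CPM in the LAG-3-/- microglia of P120 and P140 against 59.3 and 26.1 CPM in LAG-3+/+. In cord, Lag3 was at 59.8 CPM in LAG-3+/+ and 5.61 in LAG-3-/-. The sorted cells held microglial RNA, since 7 microglial markers summed to 16545 to 40889 CPM in every library of the first table, but 10 neutrophil markers summed to 6187 to 60431 CPM in WT and 25834 to 70810 in LAG-3-low against 1.10 to 6.23 CPM in LAG-3-high, where Elane was at 0. In the stage table the neutrophil sums ranged from 2015 to 2805 CPM in P120 LAG-3+/+, from 0.126 to 3.78 in P120 LAG-3-/-, from 0.147 to 2965 in P140 LAG-3+/+ and from 0.870 to 5169 in P140 LAG-3-/-. Between 18896 and 20489 genes were detected in the P140 LAG-3+/+ libraries and 24136 to 24942 in those of P120. In P140 LAG-3-/- the numbers were 20260, 23896 and 23459 in replicates 1, 2 and 3, and in P120 LAG-3-/- they ran from 23607 to 23890. The part of these differences in the results below was not tested.

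The promoters of 3 members hold the E-box core that MiT/TFE factors bind, CACGTG, which reads the same on both strands. In windows from 250 bases before to 50 bases after the start of the canonical transcript (genome build GRCm39, GENCODE), the core was found in Fnip1, Rragc and Mcoln1, and in all 3 it was flanked on 1 strand as TCACGTG. Of 21770 protein-coding promoters of the same length, 7.81% held the core and 4.15% the flanked form, against 30% of the 10 members for each form. In a list of 24 lysosomal MiT/TFE targets the shares were 58.3% and 50%. Whether that list was drawn up by this motif was not examined, so its shares are not separate evidence. The sequences are printed because the E-box is the element through which these factors act and 3 of their own regulators carry it. They are read on the plus strand, with the core in capitals, and the first base of the core lies 48 bases before the start in Fnip1, 111 before it in Rragc and 4 before it in Mcoln1, where a second core begins 23 bases after the start and is not printed.
Fnip1, chr11:54328918-54328947: tcagtttgctgcCACGTGatacggctcgtc
Rragc, chr4:123811102-123811131: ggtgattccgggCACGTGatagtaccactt
Mcoln1, chr8:3550436-3550461: ggtcgcgcttgtCACGTGttcagttc
A match is a description of letters, and binding was not measured.

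Per length, the most abundant members in LAG-3-high microglia were Mcoln1 at 88.8 ± 6.59 CPM per kb of canonical transcript (SD, n = 5), Rragc at 71.4 ± 10.2 and Flcn at 61.4 ± 4.72, and the ranges of these neighbours in the order overlapped. Tfe3, at 45.7 ± 3.23 CPM per kb, was the most abundant of the 4 factors and lay outside the range of Flcn above it and of Tfeb, at 19.9 ± 4.56, below it. Fnip1 (12), Mitf (9.49), Fnip2 (7.12), Rragd (4.94) and Tfec (0.892 CPM per kb) followed, each overlapping its neighbour. In WT the order began with Mcoln1, Rragc and Flcn, which overlapped, and ended with Rragd and Tfec at 0.00627 and 0 CPM per kb. In cord LAG-3+/+ tissue, a table normalized separately, Rragc led with 30.7 CPM per kb, followed by Mcoln1 with 25.7, Flcn with 14.5 and Rragd with 14.4. With the length of all exons joined in place of the canonical transcript, Rragc came first in LAG-3-high at 46.1 CPM per kb.

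The comparison of the LAG-3 gates asked how microglia with much surface LAG-3 differ from those with little in the same disease. No member passed both limits of the edgeR test (adjusted p under 0.1 and a log2 difference above 1), where 0.818% of all genes were called higher and 2.67% lower. Rragc passed the first limit, as 1.59% of genes did upward. The fitted values of 10 of 10 members were above 0, where the median over all genes was -0.02. With library totals alone as the scale, 6 of 10 were above 0, where that median was -0.40. Against WT, 6 members were called higher in LAG-3-high, where 12.1% of all genes were. In LAG-3-low 1, Rragd, was called higher, where 10.9% of genes were. Of these, Tfec and Rragd passed the filter on low counts through the gates alone.

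Among the factors, Mitf (ENSMUSG00000035158, chr6:97783950-97998323, plus strand), a factor with roles in pigment cells and osteoclasts, was counted at 3.87, 12, 6.44 and 44.2 CPM in WT, at 33.4, 25.5, 16.5, 28.0 and 25.8 in LAG-3-low and at 29.6, 49.9, 51.3, 51.0 and 53.7 in LAG-3-high. All LAG-3-high libraries but replicate 1 lay above the LAG-3-low libraries, and WT replicate 4 lay inside the LAG-3-high range. The difference of LAG-3-high from WT was 1.5 ± 0.58 on the log2 scale (SE, adjusted p = 0.0791), and that from LAG-3-low was 0.87 ± 0.53 (adjusted p = 0.608).

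Tfeb (ENSMUSG00000023990, chr17:48047837-48103348, plus strand), the factor best known for driving lysosome formation, was at 14.3, 22.7, 25.9 and 5.65 CPM in WT, at 25.0, 40.5, 36.4, 21.9 and 29.4 in LAG-3-low and at 52.0, 53.7, 51.3, 27.8 and 48.6 in LAG-3-high. LAG-3-high lay above every WT library, with a log2 difference of 1.44 ± 0.42 (adjusted p = 0.0255), and its replicate 4 lay within the LAG-3-low range. Tfe3 (ENSMUSG00000000134, chrX:7628761-7641444, plus strand), which shares many targets with Tfeb, was at 1.68, 127, 89.4 and 59.9 CPM in WT, at 114, 112, 146, 163 and 167 in LAG-3-low and at 151, 163, 172, 150 and 144 in LAG-3-high. WT replicate 1 held almost no Tfe3, the gates overlapped, and the log2 difference of LAG-3-high from WT was 1.17 ± 0.66 (adjusted p = 0.225).

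Tfec (ENSMUSG00000029553, chr6:16833372-16898440, minus strand), a shorter member of the family found mainly in macrophages, was near the limit of detection. It was at 0 in all 4 WT libraries, at 0, 0.0689, 2.21, 4.84 and 0 CPM in LAG-3-low and at 0, 0.801, 0.616, 0 and 6.55 CPM in LAG-3-high. With 115 counts over the LAG-3-high libraries and none in WT, the level was at least 32.1-fold higher against a floor of 3 counts over the WT libraries (adjusted p = 0.0847), but 93 of the counts were in LAG-3-high replicate 5 and the bound without it was 7.52-fold. LAG-3-low held 155 counts, 100 of them in replicate 4 (at least 32.0-fold, 14.2-fold without that library, adjusted p = 0.101, not called). Tfec passed the filter on low counts through the gates alone, so its call carries no weight of its own. The libraries of both gates ran from 0 upward, so the gates overlapped.

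**Figure D1:**
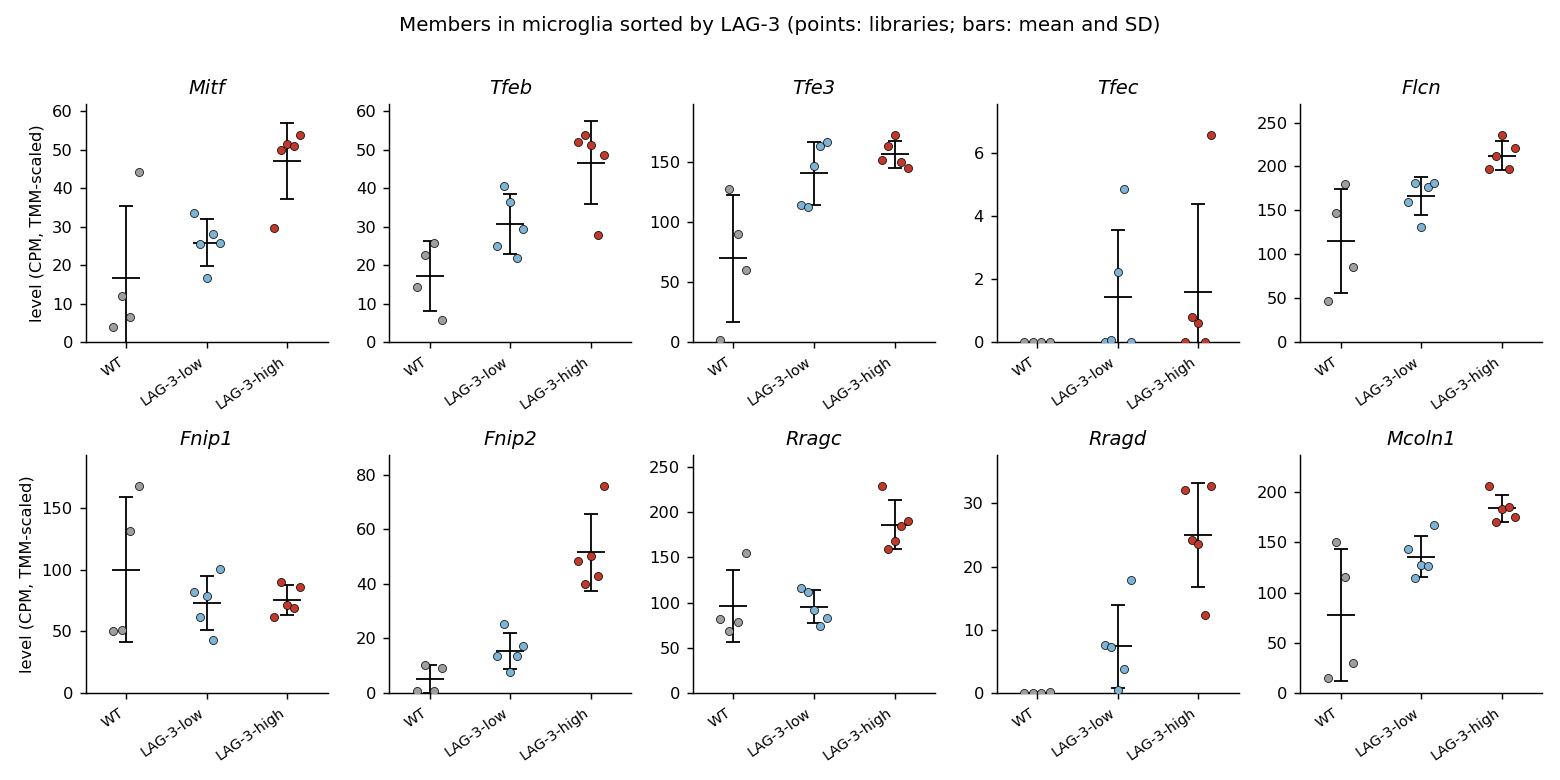
Level of each member in CPM by group of the LAG-3-sorted table, with 1 point per library (4 WT, 5 LAG-3-low, 5 LAG-3-high), the mean and the SD. Flcn, Fnip2, Rragc and Mcoln1 show LAG-3-high libraries wholly above the LAG-3-low libraries, while Fnip1 and Tfe3 overlap.

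In the folliculin complex, Fnip2 rose against WT and Fnip1 passed no test. Flcn (ENSMUSG00000032633, chr11:59682196-59701138, minus strand) was at 47.2, 147, 180 and 85.9 CPM in WT, at 159, 181, 131, 177 and 182 in LAG-3-low and at 198, 212, 235, 197 and 221 in LAG-3-high. Its LAG-3-high libraries lay above all others by a small margin, with log2 differences of 0.36 ± 0.28 from LAG-3-low (adjusted p = 0.742) and 0.88 ± 0.30 from WT (adjusted p = 0.0483, under the fold limit). With library totals alone as the scale, the difference between the gates was -0.02.

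Fnip1 (ENSMUSG00000035992, chr11:54328978-54409067, plus strand), a partner that brings folliculin to the lysosome, was at 50.4, 51.5, 131 and 168 CPM in WT, at 81.9, 61.3, 78.9, 42.8 and 101 in LAG-3-low and at 61.6, 89.7, 71.0, 69.0 and 86.1 in LAG-3-high. The 3 groups overlapped, and the log2 difference between the gates was 0.05, or -0.33 by library totals alone. Its paralogue Fnip2 (ENSMUSG00000061175, chr3:79363280-79475188, minus strand) was at 0.765, 10.2, 0.847 and 9.01 CPM in WT, at 13.5, 25.3, 7.58, 13.5 and 17.1 in LAG-3-low and at 48.6, 40.1, 50.4, 42.9 and 75.8 in LAG-3-high. Every LAG-3-high library was above every other library, with log2 differences of 3.31 ± 0.75 from WT (adjusted p = 0.00745) and 1.74 ± 0.65 from LAG-3-low (adjusted p = 0.225), the latter called when only those groups were fitted.

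Both Rag GTPase genes passed the adjusted p limit between LAG-3-high and WT. Rragc (ENSMUSG00000028646, chr4:123811217-123830793, plus strand) was at 81.8, 68.9, 78.4 and 155 CPM in WT, at 117, 111, 92.2, 74.1 and 82.7 in LAG-3-low and at 228, 160, 168, 184 and 191 in LAG-3-high. The LAG-3-high libraries lay above all others, and WT replicate 4 came nearest to them. The log2 difference was 0.96 ± 0.24 from LAG-3-low (adjusted p = 0.0379) and 0.95 ± 0.25 from WT (adjusted p = 0.0163), both just under the fold limit.

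Rragd (ENSMUSG00000028278, chr4:32982984-33025899, plus strand), whose transcription MiT/TFE factors are known to raise, was close to absent in WT, at 0, 0, 0 and 0.127 CPM. It was at 7.54, 7.24, 0.492, 3.73 and 17.9 CPM in LAG-3-low and at 32.1, 24.3, 23.6, 12.3 and 32.7 in LAG-3-high. LAG-3-high replicate 4 lay below LAG-3-low replicate 5, so the gates overlapped, with a log2 difference of 1.76 ± 0.80 (adjusted p = 0.397). Against the 2 counts over the WT libraries, LAG-3-high held 1953 counts, a ratio of 818 with a 95% counting interval of 226 to 6756 (adjusted p = 0.000292), and LAG-3-low held 769, a ratio of 238 with an interval of 65.7 to 1971 (adjusted p = 0.00162). These intervals cover counting error only. Like Tfec, Rragd passed the filter on low counts through the gates alone, so its calls against WT carry no weight of their own.

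The channel gene Mcoln1 (ENSMUSG00000004567, chr8:3550452-3565253, plus strand) was at 15.2, 150, 115 and 30.0 CPM in WT, at 143, 115, 127, 127 and 167 in LAG-3-low and at 206, 170, 184, 186 and 175 in LAG-3-high. LAG-3-high lay above every other library, while WT libraries spread from 15.2 to 150 CPM. The log2 difference was 1.25 ± 0.49 from WT (adjusted p = 0.0813) and 0.44 ± 0.44 from LAG-3-low (adjusted p = 0.853), the latter 0.06 by library totals alone.

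Counted over the members, 0 of 10 were called between the gates by edgeR (1, Rragc, with a log2 difference of up to 1.05, without LAG-3-low replicate 1 or 2 or LAG-3-high replicate 2 or 3), 3 had an unadjusted p under 0.05, and DESeq2 called 0. Of all 16508 genes, 1988 had an unadjusted p under 0.05 and DESeq2 called 988. The background was 0.818% of 16508 genes higher and 2.67% lower, and at any fold 1 member (Rragc) stood against 1.59% of genes higher. Flcn, Fnip2, Rragc and Mcoln1 did not overlap between the gates, 4 of 10 against 8.95% of all genes. The median log2 difference of the members was 0.52 against -0.02 over all genes, and the median over all genes was -0.40 by library totals alone. A 2-sided exact permutation test of the log2 level over the 252 assignments of 10 libraries, which cannot give a p under 0.00794, gave that value for Flcn, Fnip2, Rragc and Mcoln1, 0.0159 for Mitf and Rragd and 0.0556 for Tfeb, with no adjustment for the 10 genes tested. By library totals alone, 3 of the 6 that were under 0.05 stayed there, namely Fnip2, Rragc and Rragd. The permutation test was run on the members only, so its counts have no share over all genes beside them. Its smallest value arises only where the gates do not overlap, as for 8.95% of all genes upward and 6.52% downward. For Flcn, Fnip2, Rragc and Mcoln1 it therefore restates the lack of overlap given above.

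Against WT, 6 of 10 members were called higher in LAG-3-high (Mitf, Tfeb, Fnip2, Mcoln1 and, on the counts described above, Rragd and Tfec) where 12.1% of genes were called higher and 14.9% lower. At any fold 8 members stood against 13.8% of genes, and 7 members did not overlap with WT against 12.4% of genes, with a median difference of 1.35 against -0.08. The count fell to 3 with an adjusted p limit of 0.05, with a correction for length and GC content or with only these groups fitted, and lay between 3 and 5 when 1 library was left out. With the length and GC correction the 3 were Tfec, Fnip2 and Rragd, and Tfeb lost its call (0.70, adjusted p = 0.165). Tfeb, Fnip2 and Rragd stayed called with any 1 library left out, which for Rragd does not lift the limit given above. Among the fits with 1 library left out, Mitf was lost without WT replicate 1, 2 or 3 or LAG-3-high replicate 2, 3, 4 or 5 (1.14 to 1.48), Mcoln1 without WT replicate 1 or 4 or any LAG-3-high library (0.91 to 1.27), and Tfec kept its call in 2 of 9 fits, those without LAG-3-high replicate 1 or 4. Without LAG-3-high replicate 2 or 5 it did not pass the filter on low counts. In LAG-3-low, 1 member (Rragd, with the same limit) was called where 10.9% of genes were called higher and 11% lower. Without WT replicate 2 Fnip2 (2.14) and Mcoln1 (1.35) were called too, without WT replicate 3 Tfeb (1.11), without WT replicate 4 Mitf (1.80) and Fnip2 (1.99), and without LAG-3-low replicate 1 or 5 Tfec. These comparisons share the WT libraries, or the LAG-3-high libraries, and are given side by side for that reason.

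Lysosomal genes that these factors are known to drive were called between the gates. Of 24 lysosomal targets tested, 7 rose in LAG-3-high over LAG-3-low and 0.818% of all genes did, with a median log2 difference of 0.86. Ctsa, encoding the protective protein of lysosomal sialidase and galactosidase, rose by 1.22 ± 0.20 (adjusted p = 0.00377), Ctsd, the aspartic protease cathepsin D, by 1.26 ± 0.22 (adjusted p = 0.00526) and Hexa, a hexosaminidase subunit, by 1.08 ± 0.24 (adjusted p = 0.0224). Ctsd was at 7633 ± 3018 CPM in WT (SD, n = 4), 27356 ± 5086 in LAG-3-low and 65605 ± 7275 in LAG-3-high (n = 5 each). In the list of osteoclast and macrophage targets of MITF and TFE3, 3 of 7 tested genes rose and 1 fell, where 0.818% of all genes rose and 2.67% fell. Both lists were chosen with earlier results of these data known. Gpnmb, a transmembrane glycoprotein of phagocytes and melanosomes, was at 2.74 ± 3.86 CPM in WT, 113 ± 54.8 in LAG-3-low and 1150 ± 507 in LAG-3-high, a log2 difference between the gates of 3.35 ± 0.87 (adjusted p = 0.0522). The endosomal glycoprotein gene Cd68 rose by 1.01 ± 0.17 (adjusted p = 0.00375), and the low-count melanosome gene Mreg fell by 6.20 (adjusted p = 0.0472).

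Of 54 tested entries in the lists of the Rag-Ragulator and mTORC1 core, nutrient and TSC inputs, lysosomal channels with calcineurin, and autophagy targets, 1 was called between the gates, where 0.818% of all genes were called higher and 2.67% lower. It was Mlst8, a subunit of mTOR complexes, at 23.3 ± 9.15 CPM in WT, 45.3 ± 15.2 in LAG-3-low and 10.1 ± 4.92 in LAG-3-high, with a log2 difference between the gates of -2.17 ± 0.44 (adjusted p = 0.0130). Against WT, 17 of 24 lysosomal targets and 6 of 7 osteoclast and macrophage targets rose in LAG-3-high, where 12.1% of all genes were called higher, and in LAG-3-low 7 and 5 rose, where 10.9% were. The proton-chloride exchanger gene Clcn7, which lies in 2 of the lists, rose over WT (37.1 ± 14.2 CPM) in both gates, to 144 ± 18.1 CPM for LAG-3-low and 254 ± 39.5 for LAG-3-high. Mcoln3, a paralogue of Mcoln1 encoding TRPML3, had 0 counts in WT and was at least 508-fold higher in LAG-3-high (adjusted p = 0.00929). It passed the filter on low counts through the gates alone, so its call carries no weight of its own.

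**Figure D2:**
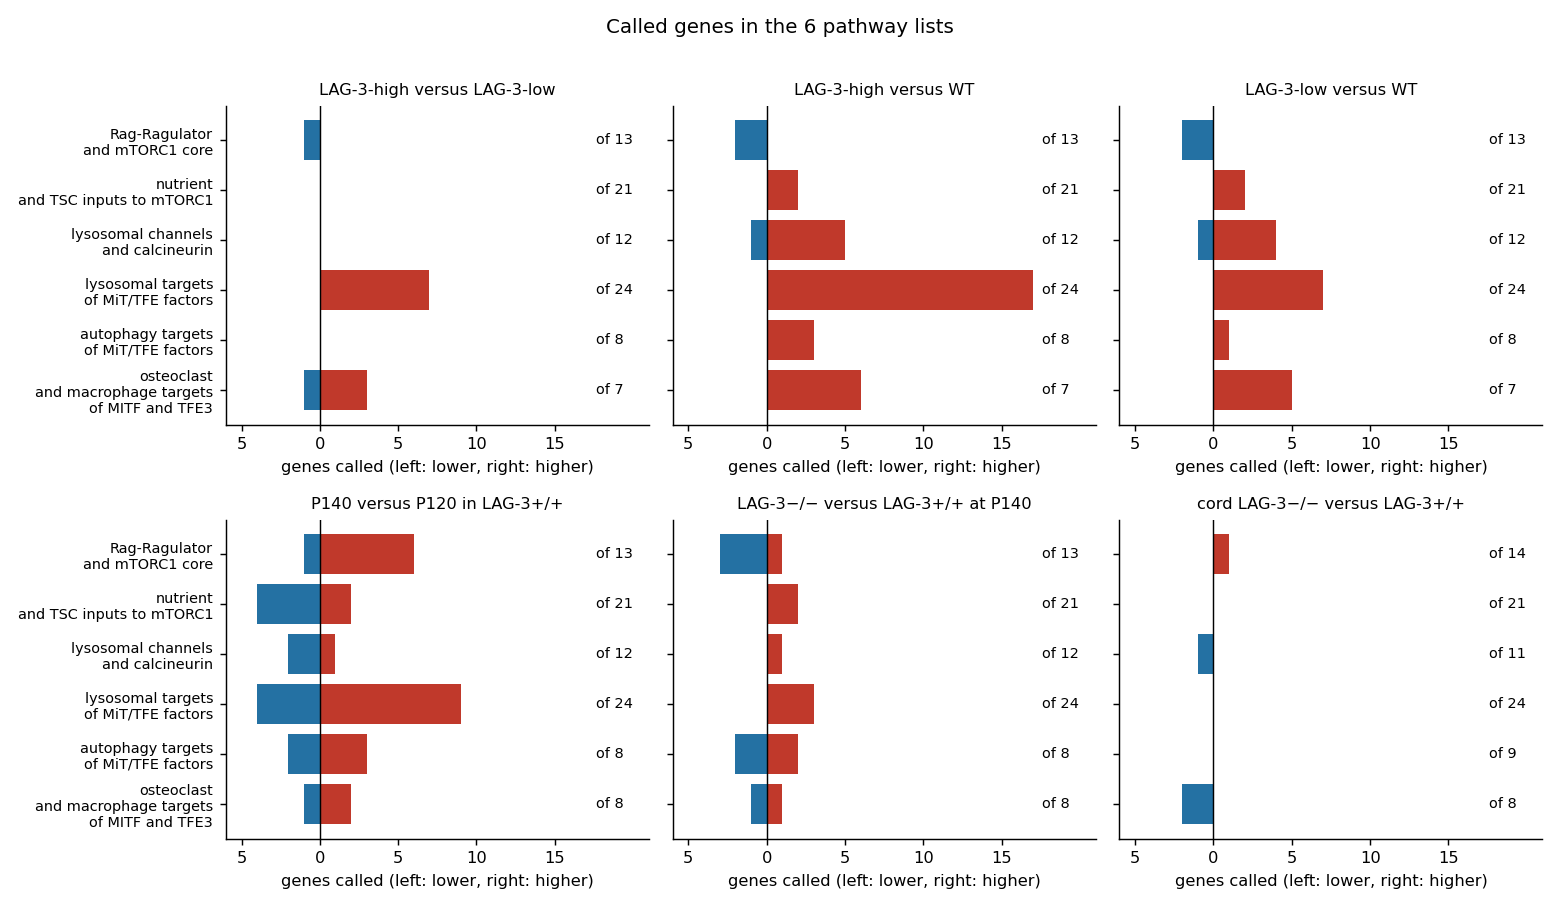
Number of genes of each of 6 pathway lists called higher (bars to the right) or lower (bars to the left) in 6 comparisons, with the number tested beside each bar. The longest bar is that of the lysosomal targets in LAG-3-high against WT, 17 of 24 called higher, and in P140 against P120 of LAG-3+/+ bars reach to both sides.

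Over the 14 sorted libraries, the genes whose log2 CPM followed each factor most closely were picked among 8917 genes with a mean of at least 10 CPM. For Mitf they were Tnfsf12 (Pearson r = 0.956), Polr2a (0.939) and Niban2 (0.932), and for Tfeb Cux1 (0.960), Gga2 (0.957) and Bsg (0.945). For Tfe3 they were Ss18 (0.988), Anapc1 (0.986) and Hsdl1 (0.986), and these r fell to 0.611, 0.633 and 0.420 without the libraries WT 1 and WT 4, so the likeness to Tfe3 rests largely on those libraries. Without the 2 libraries farthest from the median, r was 0.749 to 0.901 for the genes like Mitf and 0.849 to 0.861 for those like Tfeb. For Tfec, with 0 in 8 of 14 libraries, the highest r was 0.695 (Atosb). These are descriptions over libraries that also differ by gate and depth.

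The stage table asked what changes between P120 and P140 and whether loss of LAG-3 alters it. In LAG-3+/+ microglia 5 of 9 tested members fell between P120 and P140 and 1 rose, where 15.5% of all genes were called lower and 11.9% higher. In LAG-3-/- microglia edgeR called neither a member nor any other of the 18669 genes. At P140 the 3 members Tfe3, Fnip1 and Rragd were called higher in LAG-3-/- than in LAG-3+/+, where 7.22% of all genes were. These calls were lost with only those groups fitted or without P140 LAG-3-/- replicate 2 or 3. A test of whether the change with stage differed between genotypes called 0 of 9 members. Tfec had 0 counts in all 12 libraries and was not tested.

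Among the factors, Mitf was at 31.6, 33.8 and 56.5 CPM in P120 LAG-3+/+ and at 11.8, 20.6 and 21.4 in P140 LAG-3+/+, and at 29.5, 44.0 and 35.6 in P120 LAG-3-/- and 22.9, 31.5 and 39.9 in P140 LAG-3-/-. P140 LAG-3+/+ was the lowest of the groups and overlapped none of them, with a log2 difference from P120 of -1.18 ± 0.35 (adjusted p = 0.0375). Of all genes, 25.4% were lower without overlap between these stages. Tfe3 was at 131, 110 and 111 CPM in P120 LAG-3+/+, 70.3, 17.7 and 52.3 in P140 LAG-3+/+, 131, 112 and 135 in P120 LAG-3-/- and 76.8, 142 and 119 in P140 LAG-3-/-. P140 LAG-3+/+ was again below every other library. Tfe3 fell by 1.33 ± 0.40 on the log2 scale in LAG-3+/+ (adjusted p = 0.0415) and was 1.27 ± 0.40 higher in LAG-3-/- than in LAG-3+/+ at P140 (adjusted p = 0.0952), a call lost with an adjusted p limit of 0.05, with sex or replicate number in the fit, or with the length and GC correction. Tfeb, at 30.6, 30.0 and 23.1 CPM in P120 LAG-3+/+ and 25.0, 7.39 and 26.2 in P140 LAG-3+/+, overlapped between stages, and in LAG-3-/- it was at 28.4, 32.7 and 41.6 CPM at P120 and 20.9, 41.8 and 29.3 at P140. Its log2 difference with stage in LAG-3+/+ was -0.51 (adjusted p = 0.453).

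**Figure D3:**
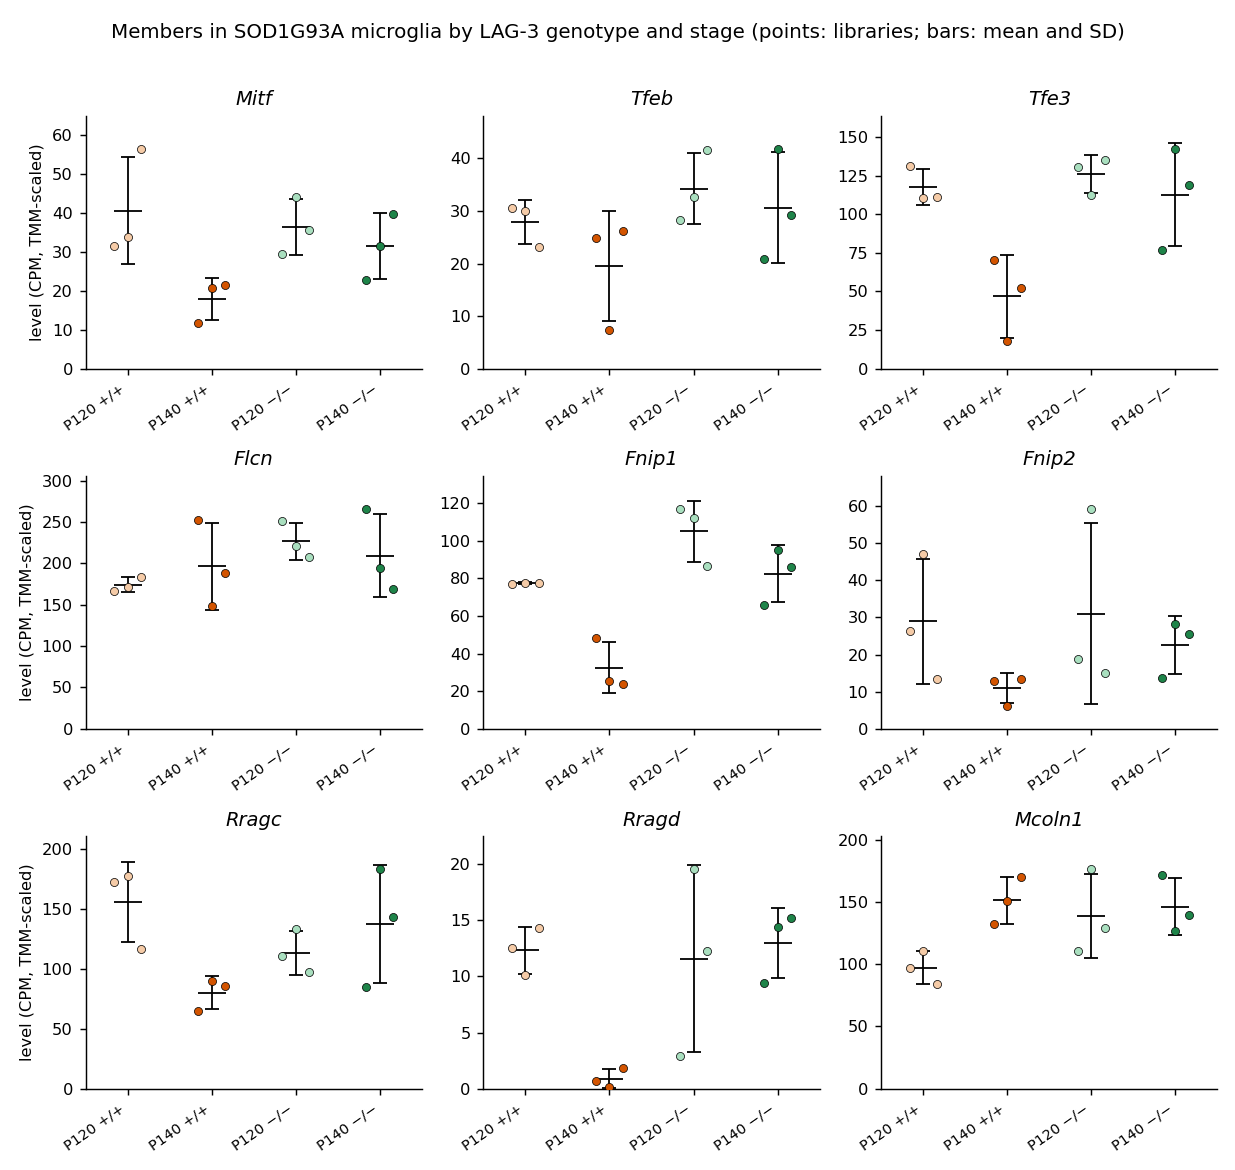
Level of 9 members in CPM in SOD1G93A microglia by genotype and stage, with 1 point per library (3 per group), the mean and the SD. Mitf, Tfe3, Fnip1 and Rragd have P140 LAG-3+/+ libraries below those of the other 3 groups, and Flcn overlaps between stages in both genotypes.

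Within the folliculin complex, Flcn passed no test, at 167, 172 and 184 CPM in P120 LAG-3+/+, 253, 149 and 189 in P140 LAG-3+/+, 251, 221 and 208 in P120 LAG-3-/- and 266, 194 and 169 in P140 LAG-3-/-. The stages overlapped in both genotypes, and the log2 difference with stage in LAG-3+/+ was 0.18 (adjusted p = 0.637). Fnip1 was at 76.9, 77.7 and 77.5 CPM in P120 LAG-3+/+, 48.2, 25.4 and 23.7 in P140 LAG-3+/+, 117, 112 and 86.4 in P120 LAG-3-/- and 65.7, 95.3 and 86.2 in P140 LAG-3-/-. It fell by 1.25 ± 0.28 with stage in LAG-3+/+ (adjusted p = 0.0128), and at P140 it was 1.34 ± 0.28 higher in LAG-3-/- (adjusted p = 0.0331). Fnip2 was uneven, at 26.4, 47.0 and 13.5 CPM in P120 LAG-3+/+, 13, 6.20 and 13.5 in P140 LAG-3+/+, 18.9, 59.2 and 15.1 in P120 LAG-3-/- and 13.5, 28.3 and 25.6 in P140 LAG-3-/-, and its difference with stage in LAG-3+/+ was -1.41 ± 0.61 (adjusted p = 0.132).

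Of the Rag genes, Rragc was at 172, 177 and 117 CPM in P120 LAG-3+/+, 64.4, 90.1 and 85.8 in P140 LAG-3+/+, 110, 133 and 96.9 in P120 LAG-3-/- and 85.1, 183 and 143 in P140 LAG-3-/-. Its LAG-3+/+ stages did not overlap, with a log2 difference of -0.96 ± 0.29 (adjusted p = 0.0393). Rragd was at 12.5, 10.1 and 14.3 CPM in P120 LAG-3+/+ and at 0.664, 0.171 and 1.85 in P140 LAG-3+/+, the latter from 16, 3 and 48 counts. In LAG-3-/- it was at 2.91, 19.5 and 12.3 CPM at P120 and 9.43, 14.4 and 15.2 at P140, so every library of the other groups exceeded those of P140 LAG-3+/+. Rragd fell by 3.76 ± 0.85 on the log2 scale with stage in LAG-3+/+ (adjusted p = 0.0134) and was 3.84 ± 0.86 higher in LAG-3-/- at P140 (adjusted p = 0.0389). The fall with stage was called in all 11 other settings and with any 1 of 6 libraries left out.

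Mcoln1 rose, at 97.2, 111 and 83.9 CPM in P120 LAG-3+/+, 132, 151 and 170 in P140 LAG-3+/+, 111, 176 and 129 in P120 LAG-3-/- and 171, 127 and 140 in P140 LAG-3-/-. The stages did not overlap in LAG-3+/+, as for 16.8% of all genes upward, with a log2 difference of 0.64 ± 0.22 (adjusted p = 0.0606), a call lost in 5 of 11 other settings. By library totals alone the difference was 0.14.

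In LAG-3+/+, the 5 lower and 1 higher of 9 members were set against 15.5% of 18669 genes called lower and 11.9% higher, and the median was -1.18 against -0.22 over all genes. Without overlap between stages, 5 were lower and 1 higher, against 25.4% and 16.8% of genes. By library totals alone the median over all genes was -0.70 and 6 members were called lower and none higher. With the length and GC correction 3 stayed called, Tfe3, Rragc and Rragd, and the differences of Mitf and Fnip1 were -0.57 and -0.53. Of the called members, Fnip1 and Rragd kept their calls without any 1 library, Mitf lost its call without P120 replicate 3 (-0.87), Tfe3 without P120 replicate 1 (-1.24), Rragc without P120 replicate 1 or 2 or P140 replicate 1 (-0.88, -0.86 and -0.83), and Mcoln1 without P120 replicate 1 or 3 or P140 replicate 2 or 3 (0.54 to 0.63). In LAG-3-/-, edgeR called 0 of 9 members between stages with 0 at an unadjusted p under 0.05, DESeq2 called 0, and the fitted values ran from -0.46 to 0.27. The background there was also 0% higher and 0% lower, although 1658 genes had an unadjusted p under 0.05 and DESeq2 called 449.

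**Figure D4:**
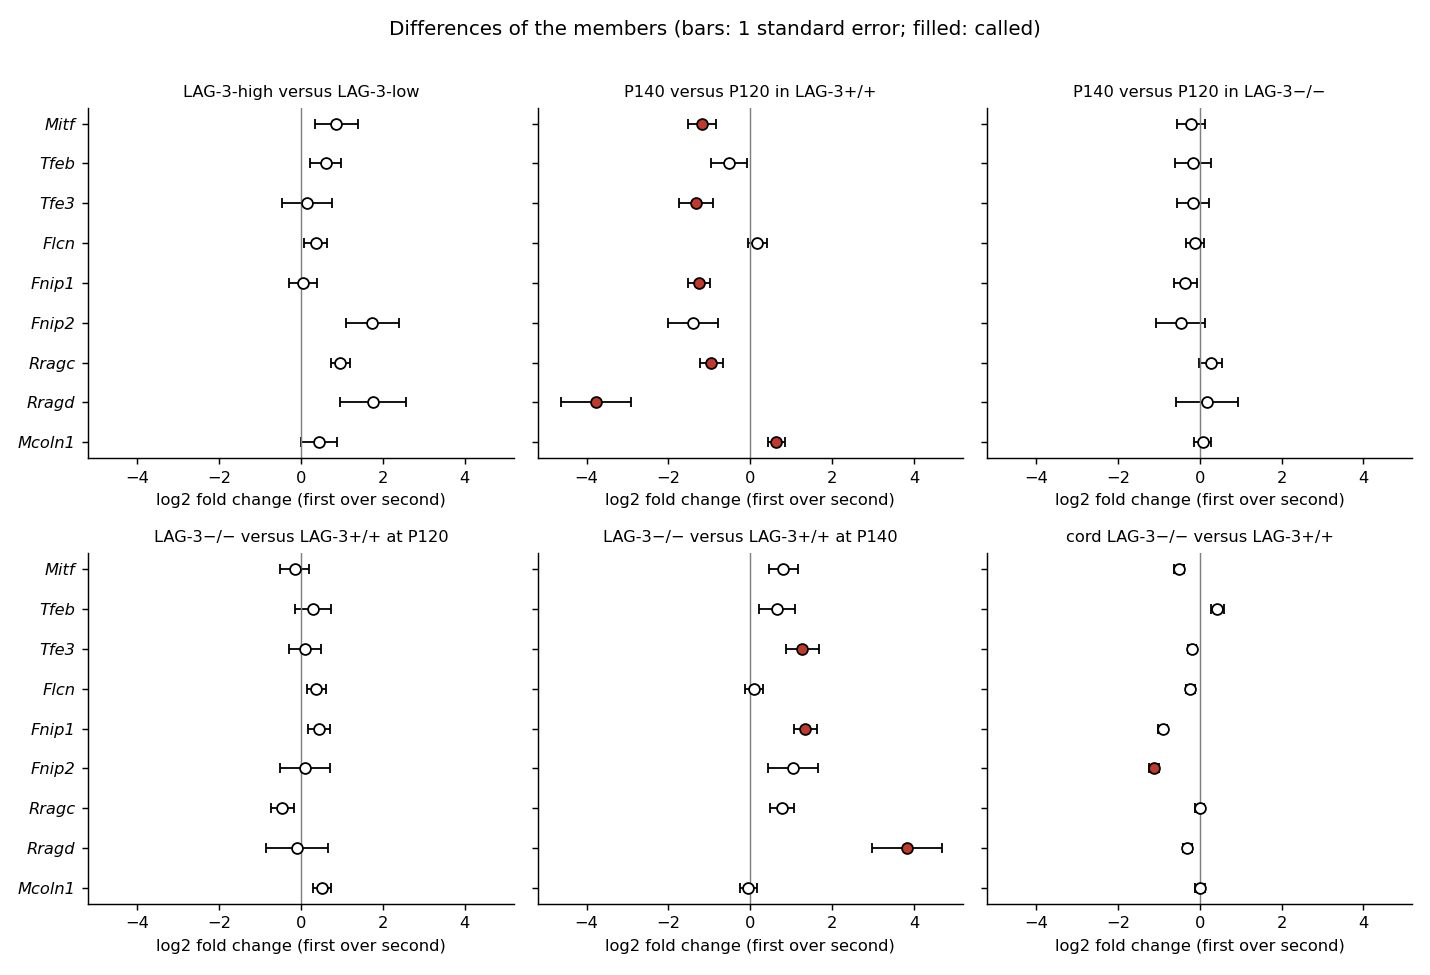
Fitted log2 difference of 9 members, with a bar of 1 SE and filled points for called genes, between the LAG-3 gates, between stages in each genotype, and between genotypes at P120, at P140 and in cord. In P140 against P120 the LAG-3+/+ values of Mitf, Tfe3, Fnip1, Rragc and Rragd lie at -0.96 or below, while the LAG-3-/- values of all members lie between -0.46 and 0.27.

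Between genotypes at P120, edgeR called 0 of 9 members against 0% of genes higher and 0.0107% lower, with 1 member (Mcoln1, 0.51 ± 0.21) at an unadjusted p under 0.05 and 0 called by DESeq2. Of all 18669 genes, 551 had an unadjusted p under 0.05 and DESeq2 called 134. Flcn, Fnip1 and Mcoln1 did not overlap and were higher in LAG-3-/-, 3 of 9 against 4.85% of genes. At P140, 3 of 9 were called higher against 7.22% of genes higher and 3% lower, and 5 (Mitf, Tfe3, Fnip1, Fnip2 and Rragd) did not overlap against 12.2% of genes. The median difference was 0.81 against 0.14 over all genes, or 0.47 over all genes by library totals alone, where Mitf and Rragc were called too. None of the 3 calls held when only those groups were fitted or when P140 LAG-3-/- replicate 2 or 3 was left out, when the differences were 1.02 and 1.23 for Tfe3, 1.18 and 1.31 for Fnip1 and 3.71 and 3.72 for Rragd. The Tfe3 call was also lost without P140 LAG-3+/+ replicate 2 (0.88) or 3 (1.36), and 5 members were called without P140 LAG-3-/- replicate 1. Each exact permutation test of 3 against 3 libraries cannot give a p under 0.1.

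The difference between genotypes in the change with stage was tested as an interaction. edgeR called 0 of 9 members against 0.161% of genes higher and 0.0107% lower, with Fnip1, Rragc and Rragd at an unadjusted p under 0.05. Of all 18669 genes, 2541 had an unadjusted p under 0.05 and DESeq2 called 1301. Rragd had the largest value, 3.93 ± 1.12 on the log2 scale (adjusted p = 0.207), and it was the member that DESeq2 called (adjusted p = 0.0114). Rragc had 1.23 ± 0.40 (adjusted p = 0.242), and both were called without P140 LAG-3-/- replicate 1 (4.12 and 1.49), while Fnip1 was called without P140 LAG-3+/+ replicate 1 (1.31). A fall of members in LAG-3+/+ alone was therefore not shown by this test at the stated limit.

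With stage in LAG-3+/+, calls in the pathway lists went in both directions, where 11.9% of all genes were called higher and 15.5% lower. In the Rag-Ragulator and mTORC1 core, 6 of 13 tested genes rose and 1 fell, among them the Ragulator subunits Lamtor5, by 1.51 ± 0.23 (adjusted p = 0.00529), and Lamtor3, by 1.37 ± 0.26 (adjusted p = 0.00744), while Rptor, encoding the mTORC1 subunit raptor, fell by 1.76 ± 0.38 (adjusted p = 0.0118). Of 21 nutrient and TSC inputs, 2 rose and 4 fell, and Depdc5, a GATOR1 subunit that restrains mTORC1, went from 20.5 ± 6.79 to 1.87 ± 0.281 CPM (SD, n = 3 each; adjusted p = 0.00763). Of 24 lysosomal targets 9 rose and 4 fell, with Ctsa up from 2367 ± 417 to 6415 ± 1370 CPM and the acid glucosidase gene Gaa down by 1.79 ± 0.35 on the log2 scale (adjusted p = 0.00861). Of 8 autophagy targets 3 rose and 2 fell, Becn1 by 1.42 ± 0.23 upward and Vps18, a subunit of the HOPS tethering complex, by 2.72 ± 0.42 downward (adjusted p = 0.00568 and 0.00548). Clcn7 fell from 128 ± 26.8 to 29.8 ± 11.9 CPM.

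At P140, LAG-3-/- differed from LAG-3+/+ at 16 of 86 tested list entries, 10 higher and 6 lower, where 7.22% of all genes were called higher and 3% lower. Clcn7 enters that count under both of its lists. With only those groups fitted, 0 genes of the whole table were called (4495 had an unadjusted p under 0.05 in the fit of all groups, and DESeq2 called 4281). Depdc5 was at 19.2 ± 13.5 CPM in LAG-3-/- (adjusted p = 0.0305), Clcn7 at 151 ± 86.1 (adjusted p = 0.0375) and Rptor at 83.1 ± 29.0 against 24.9 ± 10.9 (adjusted p = 0.0386), all higher. Lamtor5, at 85.5 ± 24.5 against 163 ± 12.1 CPM, was lower (adjusted p = 0.0473). These comparisons share the P140 LAG-3+/+ libraries with the comparison of stages, so they are not separate evidence on that group.

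In the cord table the whole lumbar tissue of P140 SOD1G93A mice was compared between genotypes. Fnip2 fell in LAG-3-/- past the fold limit, Fnip1 was lower by slightly less than that limit, and Mitf, Rragd and Flcn were lower and Tfeb higher by smaller amounts at the same adjusted p limit. Fewer cells of a type and less RNA per cell cannot be told apart in whole tissue. The 7 microglial markers summed to 1140 to 1476 CPM in LAG-3+/+ and 742 to 970 in LAG-3-/-, astrocyte markers to 14666 to 16749 and 8582 to 12556, and oligodendrocyte markers to 17354 to 18629 and 24391 to 29894. Mitochondrial counts made up 4.60% to 6.78% and 7.99% to 14.8% of the totals. The part of these in the differences was not tested.

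Fnip2 was at 35.6, 28.4 and 32.1 CPM in LAG-3+/+ and 15.2, 14.2 and 15.1 in LAG-3-/-, a fall of 1.11 ± 0.12 on the log2 scale (adjusted p = 0.000212). Fnip1 was at 54.2, 45.1 and 50.7 CPM against 29.1, 26.2 and 25.1, with a difference of -0.90 ± 0.11 (adjusted p = 0.000327) that passed the fold limit by library totals alone, at -1.04. Both genes separated the genotypes without overlap, as 26.1% of all genes did downward and 25.5% upward. With the length and GC correction the differences were -0.66 and -0.42, neither past the fold limit.

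Of the factors, Mitf was at 18.8, 18.8 and 19.4 CPM in LAG-3+/+ and 12.2, 12.6 and 15.1 in LAG-3-/-, a difference of -0.51 ± 0.12 (adjusted p = 0.00707). Tfeb was at 24.3, 20.2 and 25.9 CPM against 38.6, 26.4 and 30.3, higher by 0.43 ± 0.15 (adjusted p = 0.0406), and Tfe3 at 42.1, 40.4 and 38.3 CPM against 37.7, 33.5 and 34.3, with a difference of -0.20 (adjusted p = 0.146). The genotypes did not overlap in any of these 3 genes, which also held for 26.1% of all genes downward and 25.5% upward. Mitf and Lag3 lie on the same chromosome 26.9 Mb apart, and whether donor-strain DNA around the Lag3tm1Doi allele reaches Mitf was not tested. Tfec had 2, 3 and 3 counts in LAG-3+/+ and 1, 1 and 0 in LAG-3-/-, too few to test.

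**Figure D5:**
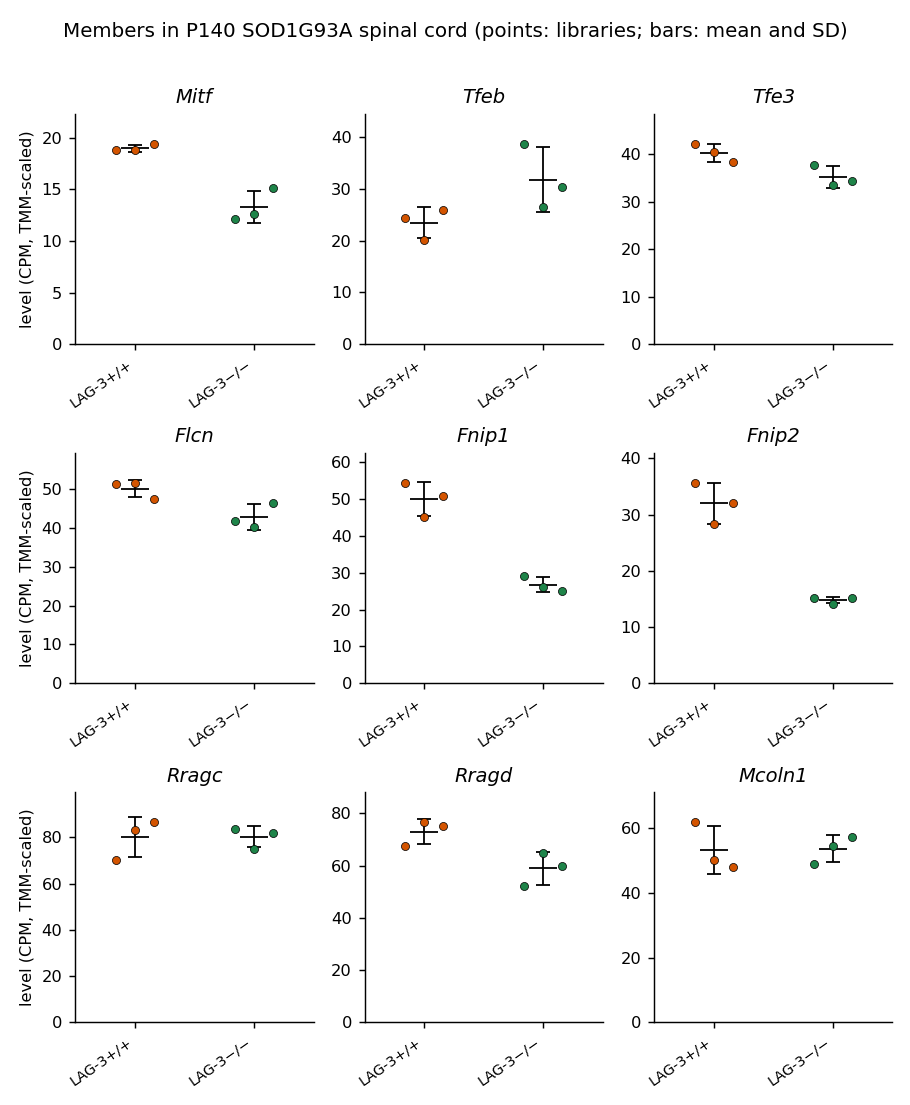
Level of 9 members in CPM in P140 SOD1G93A lumbar cord by genotype, with 1 point per library (3 per group), the mean and the SD. Fnip1 and Fnip2 in LAG-3-/- lie well below LAG-3+/+, and Rragc and Mcoln1 overlap.

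Flcn was at 51.3, 51.4 and 47.5 CPM in LAG-3+/+ and 41.8, 40.1 and 46.5 in LAG-3-/-, without overlap and with a difference of -0.23 ± 0.10 (adjusted p = 0.0962). Rragd was abundant in tissue, at 67.4, 76.5 and 74.9 CPM against 52.2, 64.8 and 59.6, also without overlap, with a difference of -0.31 ± 0.11 (adjusted p = 0.0444) that was 0.01 with the length and GC correction. Rragc, at 70.1, 83.4 and 86.4 CPM against 83.7, 75.0 and 81.9, and Mcoln1, at 61.8, 50.2 and 48.1 against 49.0, 54.6 and 57.2, overlapped between genotypes, with differences of 0.00 and 0.01.

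With both limits 1 of 9 members was called lower against 3.15% of 17702 genes lower and 4.37% higher. At any fold 5 were lower and 1 higher against 23.9% and 23.1% of genes, and the median was -0.23 against 0.00 over all genes. Without overlap between genotypes, 6 were lower and 1 higher, against 26.1% and 25.5% of genes. In the lists, 4 of 87 tested entries passed both limits. The Ragulator gene Lamtor4 rose from 17.4 ± 1.99 to 35.5 ± 7.34 CPM (adjusted p = 0.000776), and the genes that fell were Mcoln3, by 2.83 ± 0.45 on the log2 scale (adjusted p = 0.000880), Atp6v0d2, a subunit of the osteoclast proton pump, from 4.75 ± 1.08 to 1.06 ± 0.0759 CPM (adjusted p = 0.000294), and Gpnmb, from 174 ± 45.4 to 49.0 ± 13.3 CPM (adjusted p = 0.00115).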

How the data were processed

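RNA from LAG-3-sorted microglia, microglia by genotype and stage, and lumbar cord was sequenced in 32 libraries. The authors deposited 3 tables of estimated counts per gene, made according to the paper and the submitters' processing notes with Trim Galore 0.6.7, Salmon 1.9.0 and tximport in R 4.2.1 on mouse GRCm39 (the annotation release is not given in the sources used here). No column was left unmapped. The estimated counts as deposited were rounded, filtered with filterByExpr (at least 10 counts, 15 in total), scaled by TMM and tested with the edgeR 4.0.16 quasi-likelihood test in R 4.3.3, all groups of a table sharing 1 fit, and p-values were adjusted by Benjamini-Hochberg across every tested gene of a table. Calls needed adjusted p values below 0.1, plus, in the sorted and cord tables but not for stage, a log2 difference beyond 1 in either direction. CPM used TMM-scaled totals. Each table was normalized separately. Exact permutation tests used SciPy 1.17.1, and DESeq2 1.42.0 was an alternative. Names, coordinates, lengths and promoters came from GRCm39 with GENCODE annotation. Named genes were drawn from all 10 members, up to 3 called genes with the smallest adjusted p per list and comparison, Lag3 and the 3 genes most like each factor, and 1 of these is not reported here. The members and the 6 pathway lists (89 entries, 87 symbols) were chosen with earlier results of these data known. Among those symbols, Pip4p1 and Tmem55b name the same gene. The scripts were tested on simulated data. Intervals and the floor of 3 counts cover counting error only. Other settings tried were limits, size factors, filters, sex, replicate number, length and GC content, the groups fitted and each library left out.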

Additional observations from a re-analysis of the deposited data

Results flagged for a closer look

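In 6 of 29 group and member combinations of 4 or 5 libraries, the highest or lowest library stood apart from the rest by Dixon's criterion. About 1.45 would arise by chance if values were normally distributed, which does not hold for levels near 0, as for Tfec and Rragd. Mitf was lowest in LAG-3-high replicate 1, at 29.6 CPM against 49.9 to 53.7 in the others. Tfeb was lowest in LAG-3-high replicate 4, at 27.8 CPM against 48.6 to 53.7. Tfec was highest in LAG-3-high replicate 5, at 6.55 CPM against 0 to 0.801, and Fnip2 was highest in the same library, at 75.8 CPM against 40.1 to 50.4. Rragc was highest in WT replicate 4, at 155 CPM against 68.9 to 81.8. Rragd was highest there too, at 0.127 CPM where the others were at 0, which fixed its outcome.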

How the results depend on the processing

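Of 831 log2 differences of members recomputed under another setting, 720 kept their side of the limits, 67 lost a call, 42 gained one, 2 moved and 0 turned direction while called. Of 167 recomputed counts of called members, 133 stayed within 1.5 times, where a 0 that stayed at 0 was taken as unchanged. Between stages in LAG-3-/- and between genotypes at P120 the member count was 0 in every setting. The main fit called 0 and 2 genes of the whole table there, so these counts say little about stability. The count between the gates, 0, became 1 with no fold limit and 2 with only those groups fitted, and 0 to 1 with 1 library left out. LAG-3-high against WT, 6, became 3 with the 0.05 limit, with the length and GC correction or with only those groups, and 3 to 5 with 1 library left out. LAG-3-low against WT, 1, became 3 with DESeq2, 2 with RLE size factors, a mean of at least 10 counts or the length and GC correction, and 1 to 3 with 1 library left out. P140 against P120 in LAG-3+/+, 6, became 3 with the length and GC correction and 3 to 5 with 1 library left out. The P140 genotype count, 3, became 5 by library totals alone and 0 with only those groups, and 0 to 5 with 1 library left out. The interaction, 0, became 1 with DESeq2 and 0 to 2 with 1 library left out. The cord count, 1, became 6 with no fold limit, 2 by library totals alone and 0 with the length and GC correction, and stayed at 1 with any library left out. The permutation count, 6 and without a share over all genes, became 3 by library totals alone and 6 to 7 with 1 library left out. The causes were not tested.

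Replicate numbers were not shown to pair the libraries, since none of 34 same-numbered pairs correlated above 0.1 in its deviations (-0.119 to 0.0674). By the study's methods both gates were split from P140 SOD1G93A microglia, so they may share animals. Between the gates the mean r was 0.0323 for same-numbered pairs (-0.00134 to 0.0674, n = 5) and -0.00808 for others (-0.0408 to 0.0352, n = 20). The main tests between the gates treated the libraries as unpaired. With a replicate block the counts were 0 between the gates, 5 for LAG-3-high and 1 for LAG-3-low against WT, 6 for stage in LAG-3+/+, 2 for genotype at P140, 0 for the interaction and 1 for cord. With 3 libraries a group, and with Tfec and Rragd at few counts, smaller differences may have been missed.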

Other observations

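Tfec was counted only at trace levels outside the LAG-3 gates, with 0 in the 12 stage libraries and in WT and at most 3 counts in a cord library. Its counts in the gates came mainly from LAG-3-low replicates 3 and 4, at 2.21 and 4.84 CPM, and LAG-3-high replicate 5, at 6.55 CPM. Rragd, near 0 in WT microglia and at 0.171 to 1.85 CPM in P140 LAG-3+/+ microglia, was at 52.2 to 76.5 CPM in every cord library, in a table normalized separately. In the LAG-3 gates, P140 by the study's methods and also normalized separately, Rragd averaged 7.38 CPM for LAG-3-low and 25.0 for LAG-3-high. Tfe3, Fnip1 and Mitf averaged 46.8, 32.4 and 17.9 CPM in P140 LAG-3+/+ microglia. Their means were 140, 73.2 and 25.8 in LAG-3-low and 156, 75.5 and 47.1 in LAG-3-high. The means of Flcn and Mcoln1 lay between those of the gates. The reason was not tested.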
